A study of Homo sapiens with 33 samples.

Results

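The 58 genes described here code for amino acid transporters of 7 solute carrier families, out of 22465 genes that had a probe set with 1 symbol. They were taken by symbol alone, as every SLC1, SLC3, SLC6, SLC7, SLC36, SLC38 and SLC43 gene in the array's annotation except SLC7A11, and each of the 58 had 1 probe set. There were 7 SLC1, 2 SLC3, 18 SLC6, 12 SLC7, 4 SLC36, 12 SLC38 and 3 SLC43 genes. Choice by symbol also brought in genes whose products carry other solutes, among them SLC43A3 for nucleobases, SLC6A2, SLC6A3 and SLC6A4 for monoamines, SLC6A8 for creatine, SLC6A6 for taurine and SLC6A12 for betaine.

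RT112 and RT4 are human urothelial carcinoma cell lines with an FGFR3-TACC3 fusion, and PD173074 inhibits the kinases of the FGF receptors. Derivatives that grow in PD173074 were made from both lines, and expression was measured on 33 Affymetrix Human Transcriptome 2.0 arrays, 3 for each of 11 conditions. The 5 drug-exposed conditions were parental RT112 treated with PD173074 for 24 h, RT112 R1 and R3 kept in 1 µM, RT112 R2 kept in 2 µM and RT4 R1 kept in 1 µM. The 4 derivatives were also grown for 4 to 6 passages out of drug, and untreated parental RT112 and RT4 completed the set.

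All groups carry the fusion. The labels give no dose for the 24 h treatment, and the lines were kept in different growth media, so that medium and line cannot be told apart. R3 is described by the study as a mixed population, part of which carries a mutated HRAS, and each derivative is 1 selected line. Nothing states that the 3 arrays of a condition came from separate cultures, so the p-values measure only the spread between these arrays, which may be technical.

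Amino acids cross the plasma membrane through carriers that either move them with an ion gradient or exchange one amino acid for another. SLC1 carriers take up glutamate and aspartate (SLC1A1, SLC1A2, SLC1A3, SLC1A6, SLC1A7) or exchange neutral amino acids such as glutamine, alanine and serine (SLC1A4, SLC1A5). Most SLC7 members are light chains that reach the membrane only with a heavy chain of the SLC3 family, SLC3A2 or SLC3A1, whereas SLC7A1 and SLC7A2 carry arginine and lysine alone. SLC6 carriers are coupled to sodium and chloride, SLC36 carriers to protons, SLC38 carriers to sodium, and SLC43A1 and SLC43A2 are facilitators of large neutral amino acids. In epithelial tumour cells SLC1A5 and SLC38A2 bring in glutamine, the SLC7A5-SLC3A2 pair brings in leucine, and SLC38A9 and SLC36A1 sit on the lysosome, where amino acids are sensed by mTORC1.

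The deposited values are log2 signals, 1 unit being a doubling, and array medians over all probe sets lay between 4.86 and 5.08. Signals of different genes come from different probes and are not compared with each other, and no fold is given where one of the groups lay below the array median. A difference passed the test where limma, with p-values adjusted over all 22465 genes, gave an adjusted p under 0.01. Over all genes 100% of the 28664 pairwise calls were between groups that did not overlap. Lack of overlap in a gene that passed therefore adds no support to the test. Among genes that did not pass, the share without overlap was not counted, so lack of overlap adds no support there either. Parental RT4 replicate 1 lay apart from its group, at a mean distance of 78.9 log2 units over all genes from the other arrays, against 59.2 and 58.1 for them. RT112 R1 in drug replicate 3 lay at 82.3, against 59.3 and 69.6 for the other arrays of its group. In every condition 14 or 15 of 16 urothelial marker genes were above the array median on all 3 arrays. Of 9 immune markers 7 or 8, and of 6 endothelial markers 3 or 4, were above it on no array of a condition. After 24 h of drug 1 of the 9 immune and 2 of the 6 endothelial markers were higher than in parental RT112, where 11.4% of all genes were. The endothelial list averaged 5.20 to 5.42 on the arrays of that group and 5.11 to 5.69 in R2 in drug, against 5.04 to 5.10 in parental RT112. PTPRC, a defining immune marker, averaged 4.28 to 4.36 over the conditions. PECAM1, a defining endothelial marker, averaged 3.73 to 4.90, highest in R1 out of drug at 4.90, against 4.15 in parental RT112. Fibroblast markers also moved with drug in RT112. Their list averaged 5.88 to 6.03 on the arrays of R1 in drug, 5.74 to 5.89 in R2 in drug and 5.40 to 5.45 after 24 h of drug, against 5.08 to 5.15 in parental RT112, with 4, 5 and 2 of 10 genes above the median, against 2. LUM, a matrix proteoglycan of connective tissue, averaged 13.43 in R1 in drug, 12.86 in R2 in drug and 11.94 after 24 h, against 9.7 in parental RT112, and the part of these markers in the results on R1, R2 and 24 h of drug was not tested.

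Of the 58 transporter genes, 26 were above the array median on all 3 arrays of all 11 conditions. These were SLC1A1, SLC1A3, SLC1A4 and SLC1A5; SLC3A2; SLC6A6, SLC6A8, SLC6A9, SLC6A11 and SLC6A12; SLC7A1, SLC7A2, SLC7A5, SLC7A6 and SLC7A8; SLC36A1 and SLC36A4; SLC38A1, SLC38A2, SLC38A6, SLC38A7, SLC38A9, SLC38A10 and SLC38A12; SLC43A1 and SLC43A2. Another 10 were above it in some conditions, namely SLC1A6, SLC1A7, SLC6A2, SLC6A13, SLC6A14, SLC6A17, SLC7A7, SLC7A9, SLC38A4 and SLC43A3. The other 22 were above it on all 3 arrays of no condition, at 3.5 to 5.06, and their condition means spanned 0.11 to 0.27. They were SLC1A2, the glial glutamate carrier; SLC3A1, the heavy chain of kidney and gut; SLC6A3, SLC6A4, SLC6A5, SLC6A7, SLC6A15, SLC6A16, SLC6A18, SLC6A19 and SLC6A20; SLC7A3, SLC7A4, SLC7A10, SLC7A13 and SLC7A14; SLC36A2 and SLC36A3; and SLC38A3, SLC38A5, SLC38A8 and SLC38A11.

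By family, 7 of 12 SLC38 genes and 4 of 7 SLC1 genes were above the median in all conditions, against 5 of 18 SLC6 genes and 5 of 12 SLC7 genes. The count of transporter genes above the median ran from 28 in parental RT112 after 24 h of drug, R2 in and out of drug, R3 out of drug and parental RT4 to 32 in RT4 R1 out of drug. As shares these are 48.3% and 55.2% of the 58, and the share of all genes above the median lay between 59.9% and 61.7%. Of the 26 genes above the median everywhere, 23 passed the test in at least 1 of the 16 pairwise comparisons, against 69.3% of all 12323 such genes. Of the 10 in between, 5 did, against 44.6% of such genes, and of the 22 dim genes none did, against 3.57%. SLC7A5 had the widest span of condition means among the 58, 10.07 log2 units, with 6.44 in RT4 R1 in drug at one end and 16.51 in RT112 R1 out of drug at the other. SLC38A4 spanned 7.57, SLC6A14 5.60, SLC1A3 4.23 and SLC7A8 4.13.

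**Figure D1:**
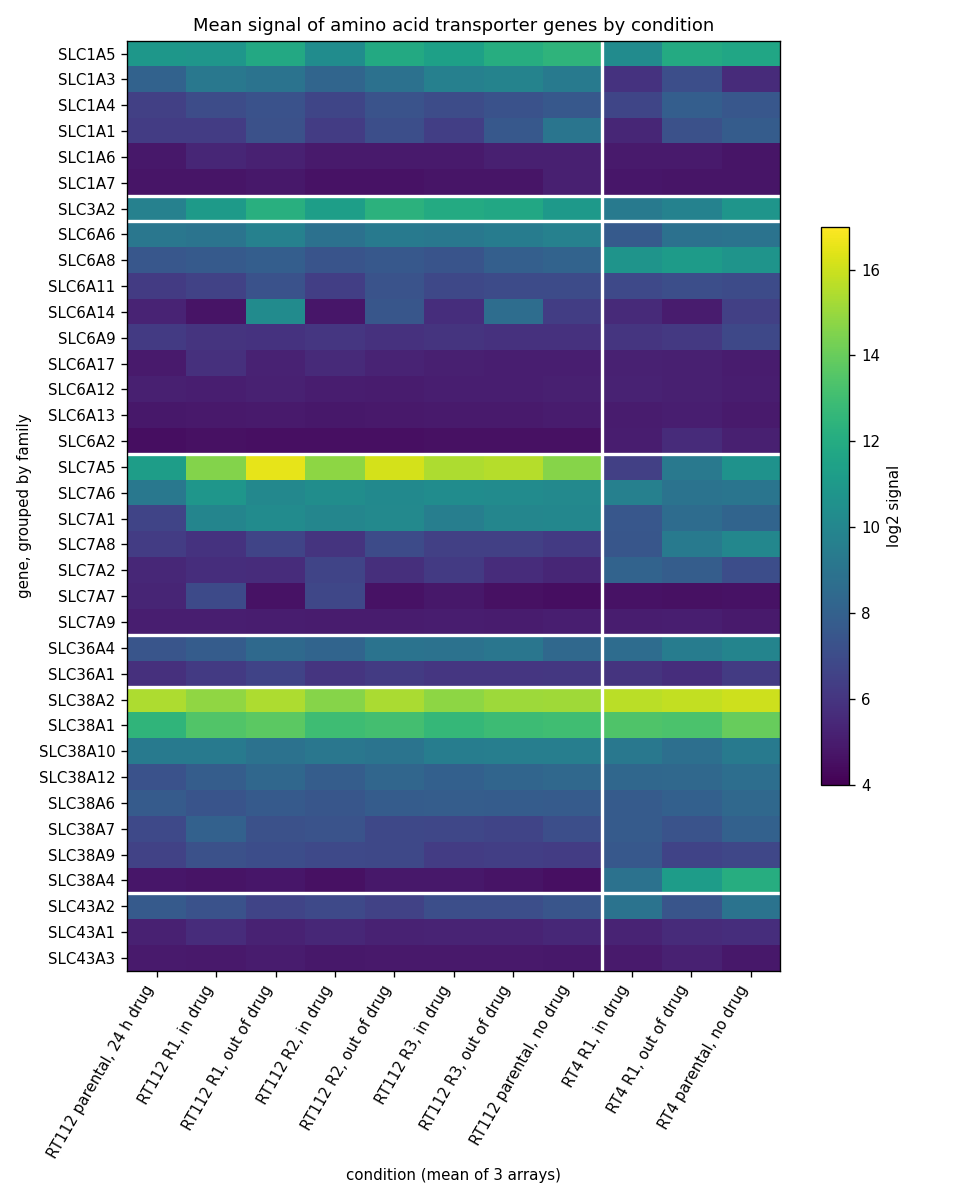
Mean log2 signal of 3 arrays for the 36 transporter genes above the array median in at least 1 condition, by gene (vertical) and condition (horizontal). Colours are read along a gene's own line, since signals of different genes are not comparable; SLC7A5 runs between 6.44 and 16.51, and SLC38A4 is bright in the RT4 conditions.

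The first comparison asked what 24 h of PD173074 did to parental RT112. Of the 58 genes, 16 fell and 2 rose, and among all genes 13.1% fell and 11.4% rose. The median difference over the 58 was -0.11, against 0.01 over all genes. The fall took in 5 of 7 SLC1 genes, 3 SLC6, 3 SLC7, 2 SLC36 and 2 SLC38 genes and the heavy chain SLC3A2.

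SLC7A5, the leucine-exchanging light chain, was at 11.27, 11.90 and 10.48 after 24 h of drug and at 15.21, 14.30 and 14.41 without drug. The difference was -3.42 (SE 0.39, adjusted p = 0.000623), or 10.7-fold lower. Near-identical copies of SLC7A5 exist in the genome, and its probe set could take up their signal. SLC3A2, the heavy chain that carries SLC7A5 to the membrane, was at 9.67, 9.82 and 9.66 after drug and at 11.27, 10.80 and 10.86 without. SLC3A2 fell by 1.26 (SE 0.13, adjusted p = 0.000465). SLC7A6, a light chain that exchanges cationic for neutral amino acids, fell by 0.93 (adjusted p = 0.00181).

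SLC7A1, the cationic amino acid carrier that needs no heavy chain, was at 6.81, 6.69 and 6.55 after drug and at 10.38, 9.80 and 9.95 without drug. The treated arrays were close together and far below the untreated ones, with a difference of -3.36 (SE 0.16, adjusted p = 4.94e-05), or 10.3-fold lower. SLC1A1, a high-affinity glutamate carrier that also takes up cysteine, was at 6.20, 6.25 and 6.51 after drug and at 8.31, 9.42 and 9.36 without. Parental replicate 1 was the lowest of the untreated arrays, and SLC1A1 fell by 2.71 (SE 0.29, adjusted p = 0.000505). SLC1A5, the glutamine exchanger, was at 10.69, 10.48 and 11.46 after drug and at 12.35, 12.30 and 12.74 without. It fell by 1.59 (SE 0.26, adjusted p = 0.00301).

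Among the other genes that fell, the glutamate carrier SLC1A3 differed by -1.28, the neutral amino acid exchanger SLC1A4 by -1.16, the sodium-coupled SLC6A14 by -1.10, SLC38A12 by -1.07 and SLC36A4 by -0.98. Smaller falls were seen for SLC6A11, a GABA carrier (-0.71), the taurine carrier SLC6A6 (-0.59), SLC38A1 (-0.52), SLC1A7 (-0.41) and the lysosomal SLC36A1 (-0.33). SLC1A7 averaged 4.74 after drug, below the array median, and 5.16 without, close to it. The genes that rose were SLC7A7, a light chain for export of cationic amino acids, with a mean of 5.35 after drug and 4.47 without (0.88, SE 0.10, adjusted p = 0.00057), and the glycine carrier SLC6A9 (0.34, adjusted p = 0.00935). SLC38A2, a sodium-coupled glutamine carrier induced in many cells when amino acids run short, was at 15.43, 15.23 and 15.52 after drug and at 15.03, 15.05 and 15.41 without. Its groups overlapped and the difference, 0.23 (95% interval -0.08 to 0.54, adjusted p = 0.216), did not pass. The 40 genes that did not pass lay between -0.57 and 0.25. Without parental replicate 3 the 18 calls became 11. Of the 18, 6 passed under every alternative setting tried (SLC1A3, SLC1A4, SLC7A1, SLC7A7, SLC36A4 and SLC38A12).

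**Figure D2:**
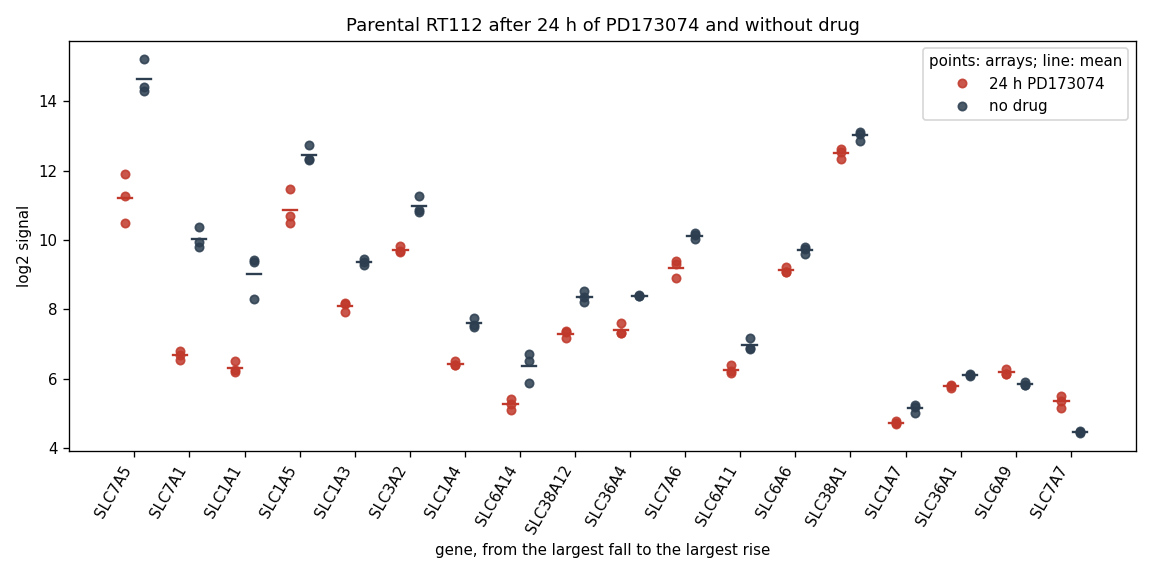
Log2 signal on each array of parental RT112 after 24 h of PD173074 (left of each pair) and without drug (right), for transporter genes that passed the test; each point is 1 array. In SLC7A5 and SLC7A1 all 3 treated arrays lie below the untreated ones, and in SLC7A7 they lie above them.

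The promoters of these genes were read for a pair of short motifs, chosen with these results known. TGATGNAA is the core of the amino acid response element, which ATF4 and its partners bind, and CACGTG is the E-box bound by MYC and by TFEB and its relatives. RefSeq windows of GRCh38.p14, from 250 bases before to 50 after a gene's start, were matched for 45 of the 58 genes. TGATGNAA, on either strand, was in windows of 6 of the 45 genes (13.3%), against 4.46% of the 27305 genes with a window and 3.62% of all 35116 windows. All 6 genes (SLC1A3, SLC1A4, SLC1A5, SLC3A2, SLC7A1 and SLC38A1) were among the 15 of the 45 that fell after 24 h of drug. Of all 565 tested genes with the motif 12.2% fell, against 15.6% of the 15247 tested genes with a window, and whether a factor acts at the motif was not tested. A match is a run of letters and not a shown site, and no match says only that the letters are not in the window. The matches are shown 5′ to 3′ on the gene's strand with the motif in capitals, since these 6 genes include the exchanger SLC1A5, the heavy chain and the carrier with one of the largest falls.
SLC7A1, chr13:29595663-29595692, minus strand: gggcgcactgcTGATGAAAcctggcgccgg
SLC1A3, chr5:36596357-36596386, plus strand: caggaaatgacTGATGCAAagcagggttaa
SLC1A5, chr19:46784893-46784922, minus strand: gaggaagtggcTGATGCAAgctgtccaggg
SLC38A1, chr12:46266502-46266531, minus strand: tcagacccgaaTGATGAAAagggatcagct
SLC1A4, chr2:64989381-64989410, plus strand: gcggctcccgtTTGCATCAtctccagccgg
SLC3A2, chr11:62881725-62881748, plus strand: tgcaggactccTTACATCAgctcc
In SLC1A4 and SLC3A2 the motif lies on the opposite strand, so that the capitals hold its reverse complement. SLC1A3, SLC1A5 and SLC3A2 have 3 windows each, for 3 start sites, and SLC1A4 and SLC38A1 have 2. The match is in 1 window of each of these genes, and SLC7A1 has 1 window.

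CACGTG was in windows of 10 of the 45 genes (22.2%), against 8.77% of genes and 7.26% of windows. Of these 10 genes, 4 fell and 1 rose after 24 h of drug, and of all 1606 tested genes with the motif 21.9% fell. The E-boxes of SLC7A5, which fell, and of SLC7A7, which rose, are shown because these light chains moved in opposite directions.
SLC7A5, chr16:87869621-87869648, minus strand: gccggacgacgCACGTGctccgagctgg
SLC7A7, chr14:22816080-22816107, minus strand: gaatgaaaaggCACGTGggtctggtggg
Counted from the gene's start, the SLC7A5 motif begins at position -130. The SLC7A7 motif begins at position -225 from 1 of 3 start sites of that gene.

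The second set of comparisons asked how derivatives kept in drug differed from their parental line. The 3 RT112 derivatives and the 24 h treatment were set against the same 3 parental arrays, so these comparisons are not independent. In R1 in drug 4 of the 58 genes rose and 4 fell, against 5.19% and 6.52% of all genes. In R2 in drug 4 rose and 7 fell, against 9.08% and 8.91%. In R3 in drug none rose and 1 fell, against 0.899% and 1.05%. In RT4 R1 in drug 1 rose and 3 fell, against 2.53% and 3.33% of all genes.

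SLC1A1 was lower in all 4 derivatives in drug, as it was after 24 h. It was at 6.32, 6.50 and 6.12 in R1 in drug, at 6.42, 6.43 and 6.10 in R2 in drug and at 6.26, 6.53 and 6.45 in R3 in drug, against 8.31, 9.42 and 9.36 in parental RT112. In RT4 it was at 5.36, 5.27 and 5.56 in R1 in drug and at 7.42, 8.03 and 7.90 in parental RT4. No drug array overlapped a parental array of its own line, as in every gene that passed. Against parental RT112, SLC1A1 differed by -2.72 in R1 (SE 0.31), by -2.71 in R2 (SE 0.29) and by -2.62 in R3 (SE 0.30), with adjusted p-values of 0.00255, 0.000734 and 0.00731. Against parental RT4 it differed by -2.39 in RT4 R1 (SE 0.17, adjusted p = 0.000471), 5.23-fold lower. The difference between the RT112 R1 and RT4 R1 effects was -0.33 (95% interval -1.17 to 0.51, adjusted p = 0.624).

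SLC7A7 was at 6.90, 6.80 and 7.08 in R1 in drug and at 6.84, 6.58 and 6.89 in R2 in drug, against 4.50, 4.47 and 4.45 in parental RT112. The derivatives lay above the array median and parental RT112 below it. SLC7A7 rose by 2.45 in R1 (SE 0.09, adjusted p = 0.00012) and by 2.30 in R2 (SE 0.10, adjusted p = 2.36e-05). It was at 4.73, 4.92 and 4.85 in R3 in drug (0.36, 95% interval 0.18 to 0.54, adjusted p = 0.0331) and at 4.79, 4.61 and 4.49 in RT4 R1 in drug against 4.66, 4.61 and 4.66 in parental RT4 (-0.01, interval -0.26 to 0.23, adjusted p = 0.951).

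SLC1A5 was at 10.29, 11.16 and 11.01 in R1 in drug and at 10.48, 9.88 and 10.60 in R2 in drug, against 12.35, 12.30 and 12.74 in parental RT112. All 6 derivative arrays were lower, with differences of -1.64 (SE 0.25, adjusted p = 0.00698) and -2.14 (SE 0.21, adjusted p = 0.000503). R3 in drug, at 11.58, 11.42 and 11.22, was also below every parental array but missed the threshold (-1.06, adjusted p = 0.0126). In RT4 R1 in drug it was at 10.11, 10.58 and 10.16, against 11.05, 12.44 and 11.64 in parental RT4 (-1.43, SE 0.34, adjusted p = 0.0338).

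SLC6A14, a carrier of neutral and cationic amino acids found in epithelia, was at 4.79, 4.60 and 4.64 in R1 in drug and at 4.85, 4.92 and 4.53 in R2 in drug, against 5.87, 6.51 and 6.72 in parental RT112. SLC6A14 fell by 1.69 in R1 (SE 0.22, adjusted p = 0.00398) and by 1.60 in R2 (SE 0.22, adjusted p = 0.00208). SLC6A6 fell by 0.72 in R1 and by 0.89 in R2. SLC6A17, a vesicular carrier of neutral amino acids in neurons, rose by 0.70 in R1 and by 0.45 in R2, with signals near the array median. R2 in drug also had lower SLC1A3 (-1.14), SLC1A4 (-0.86) and SLC1A7 (-0.53) and higher SLC7A2, a cationic carrier (1.23, SE 0.22, adjusted p = 0.00582). SLC1A7 averaged 4.63 in R2 in drug, below the array median, and 5.16 in parental RT112, close to it. SLC7A2 was at 7.17, 6.56 and 6.23 in R2 in drug and at 5.47, 5.44 and 5.36 in parental RT112.

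The lysosomal carrier SLC38A9 was at 7.14, 7.20 and 7.26 in R1 in drug and at 6.81, 6.97 and 6.76 in R2 in drug, against 6.27, 6.27 and 6.41 in parental RT112. In RT4 it was at 7.56, 7.60 and 7.53 in R1 in drug, against 6.89, 6.67 and 6.68 in parental RT4. The 3 differences were 0.88 (SE 0.07, adjusted p = 0.000969), 0.53 (SE 0.09, adjusted p = 0.0044) and 0.82 (SE 0.10, adjusted p = 0.00293). R3 in drug, at 6.24, 6.30 and 6.32, lay within the range of the parental arrays or just below it. SLC38A7, another lysosomal carrier, rose by 0.94 in R1 (adjusted p = 0.00266).

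RT4 R1 in drug further had lower SLC36A4 and SLC38A1. SLC36A4, a proton-coupled family member with high affinity for proline and tryptophan, was at 8.71, 8.55 and 8.56 in RT4 R1 in drug and at 10.17, 9.76 and 9.73 in parental RT4 (-1.28, SE 0.14, adjusted p = 0.00204). SLC38A1, a glutamine carrier, was at 13.32, 13.50 and 13.46 in RT4 R1 in drug and at 14.05, 14.00 and 13.95 in parental RT4 (-0.57, SE 0.09, adjusted p = 0.00869). Neither gene's groups overlapped, as in every gene that passed.

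SLC7A5 did not pass the test in any derivative in drug. It was at 13.76, 14.36 and 15.65 in R1 in drug, at 14.81, 14.25 and 15.38 in R2 in drug and at 16.12, 16.12 and 13.96 in R3 in drug, against 15.21, 14.30 and 14.41 in parental RT112. The arrays overlapped in all 3, and the differences were -0.05 (95% interval -1.32 to 1.22), 0.17 (-0.62 to 0.97) and 0.76 (-0.74 to 2.26). In RT4 it was at 6.36, 6.43 and 6.53 in R1 in drug and at 13.44, 10.77 and 7.61 in parental RT4. The parental RT4 arrays were far apart, though none overlapped the derivative, and a difference of -4.17 (SE 1.28) had an adjusted p of 0.0817.

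SLC3A2 and SLC38A2 did not pass either. SLC3A2 was at 10.41, 11.11 and 11.68 in R1 in drug, at 11.19, 10.92 and 11.79 in R2 in drug and at 12.41, 12.49 and 10.93 in R3 in drug, against 11.27, 10.80 and 10.86 in parental RT112. SLC38A2 was at 14.72, 14.77 and 14.96 in R1 in drug, at 14.47, 14.78 and 14.65 in R2 in drug and at 14.91, 14.58 and 14.84 in R3 in drug, against 15.03, 15.05 and 15.41 in parental RT112. SLC3A2 overlapped with parental RT112 in all 3 derivatives, and SLC38A2 lay below all parental arrays in all 3, with adjusted p-values of 0.117, 0.0224 and 0.134. In RT4 R1 in drug SLC3A2 was at 9.29, 9.50 and 9.36, against 11.71, 10.40 and 10.20 in parental RT4 (-1.39, adjusted p = 0.0521), and SLC38A2 was at 15.36, 15.82 and 15.82, against 15.88, 15.88 and 16.25 (-0.34, adjusted p = 0.26).

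**Figure D3:**
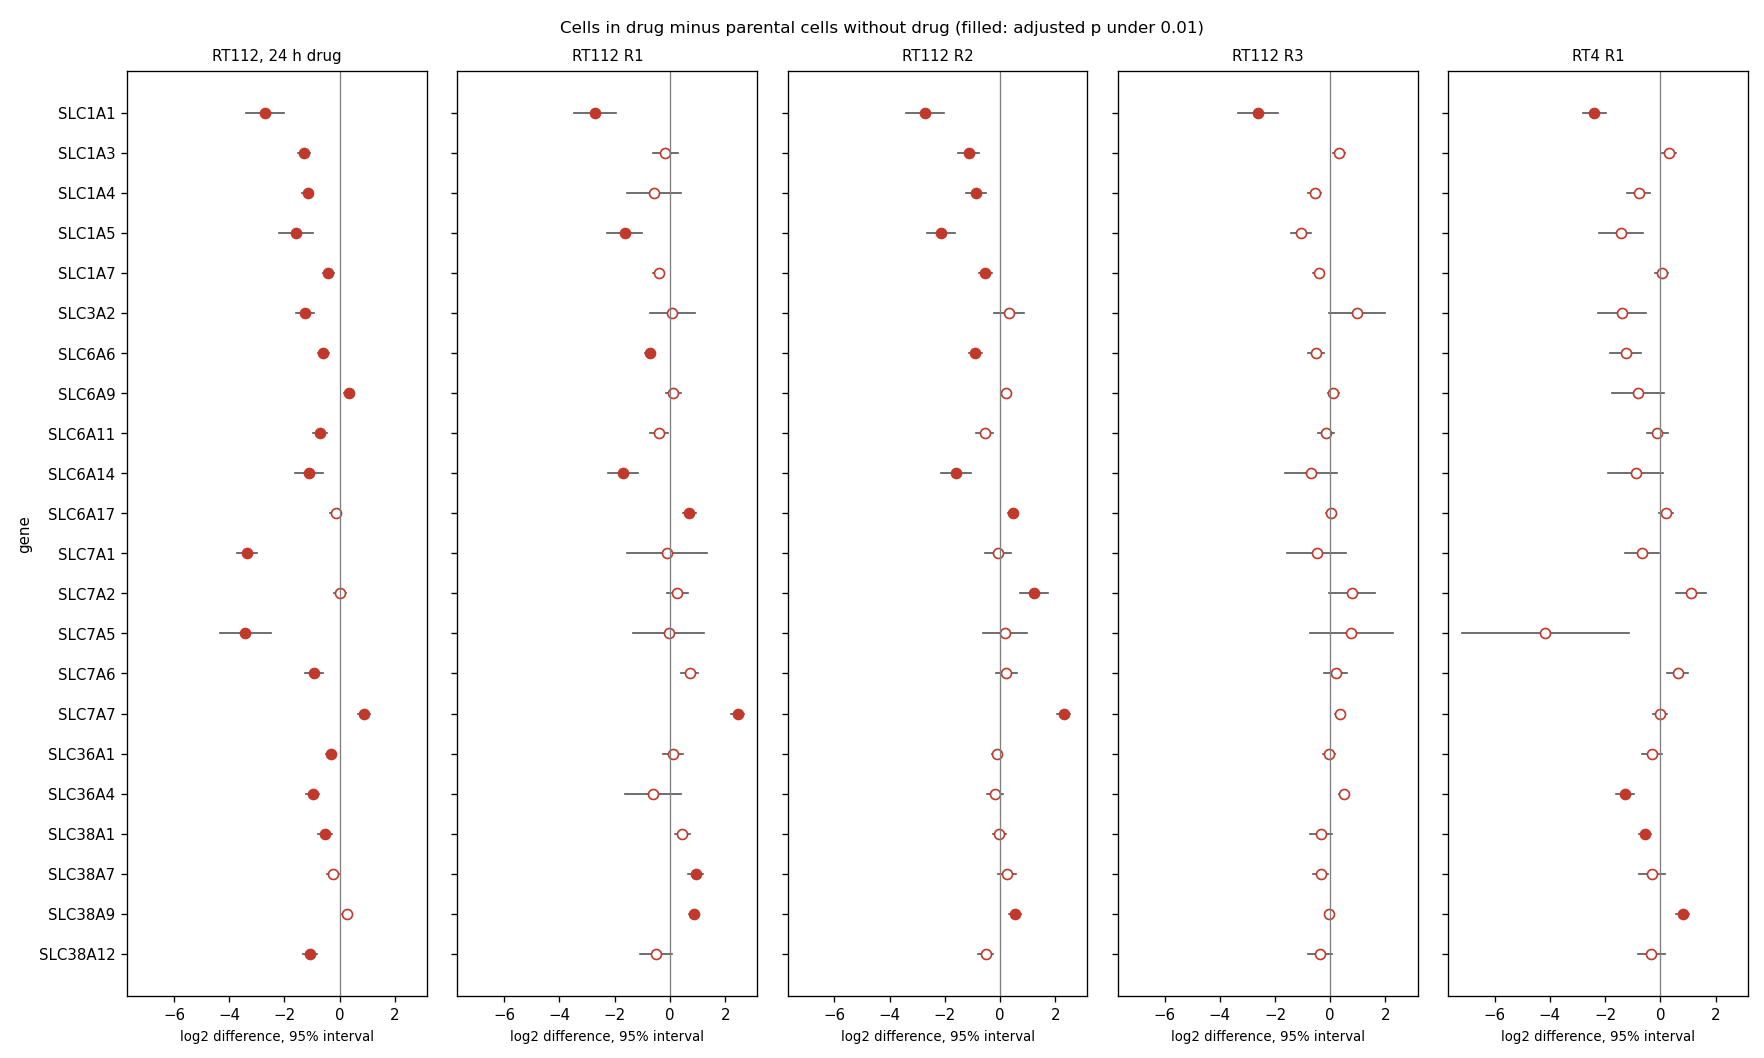
Log2 difference from the line's own parental cells, in each of the 5 drug-exposed conditions (panels), with 95% intervals from limma; filled points passed the test. SLC1A1 is the gene with a filled point in every panel, between -2.72 and -2.39, and SLC7A7 is filled above 0 in R1, R2 and after 24 h.

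These counts depended on single arrays. In R1 in drug, 12 genes passed without R1 in drug replicate 3, 4 without parental replicate 1, 3 without parental replicate 2 and 2 without R1 in drug replicate 1 or parental replicate 3, against 8. In R2 in drug, 5 passed without parental replicate 3, 9 without R2 in drug replicate 3 and 6 without any 1 of the other 4 arrays, against 11; in RT4 R1 in drug, 10 passed without parental RT4 replicate 1 and 1 without RT4 R1 in drug replicate 2 or 3, against 4. In R3 in drug the SLC1A1 call was lost when any 1 of parental replicates 2 and 3 and the 3 R3 arrays was left out, and without R3 in drug replicate 3 2 other genes passed instead.

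Derivatives grown out of drug were then compared with their parental line. Few transporter genes passed. In R1 out of drug 1 of 58 rose and none fell, against 0.761% and 0.686% of all genes. In R2 out of drug 2 rose and 2 fell, against 4.18% and 2.69%. In R3 out of drug 1 rose and none fell, against 1.76% and 1.42%. In RT4 R1 out of drug 1 rose and none fell, against 0.432% and 0.534% of all genes.

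SLC38A9 was at 7.15, 7.04 and 7.03 in R1 out of drug and at 6.73, 6.84 and 6.93 in R2 out of drug, against 6.27, 6.27 and 6.41 in parental RT112. It was higher on every array, by 0.76 (SE 0.09, adjusted p = 0.00474) and by 0.52 (SE 0.08, adjusted p = 0.00798). SLC3A2 was at 12.64, 12.15 and 12.26 in R2 out of drug and at 11.27, 10.80 and 10.86 in parental RT112, with a difference of 1.37 (SE 0.17, adjusted p = 0.00386). SLC43A2, a facilitator of large neutral amino acids, was at 6.55, 6.58 and 6.52 in R2 out of drug and at 7.30, 7.50 and 7.46 in parental RT112 (-0.87, adjusted p = 0.00141). All R2 arrays were above the parental ones for SLC3A2 and below them for SLC43A2, as in every gene that passed. SLC38A10 was at 8.89, 9.04 and 9.08 in R2 out of drug and at 9.58, 9.61 and 9.56 in parental RT112 (-0.58, adjusted p = 0.00393).

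In R3 out of drug SLC36A4 was at 9.0, 9.19 and 9.17, against 8.41, 8.38 and 8.39 in parental RT112 (0.73, SE 0.08, adjusted p = 0.00376). In this comparison same-numbered arrays deviated together, and with the replicate number as a block 3 genes passed, SLC36A4 (0.73), SLC1A1 (-1.47) and SLC6A14 (2.27), each with an adjusted p of 0.0097. SLC1A3 was at 7.11, 7.04 and 7.16 in RT4 R1 out of drug and at 5.72, 5.57 and 5.46 in parental RT4 (1.52, SE 0.10, adjusted p = 0.00195). Both genes were higher on every array out of drug, as in every gene that passed.

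SLC1A1 stayed below parental RT112 on every array out of drug, at 6.71, 7.68 and 7.27 in R1, 6.38, 7.74 and 7.19 in R2 and 7.22, 7.97 and 7.50 in R3. The differences, -1.81, -1.93 and -1.47, missed the threshold, with adjusted p-values of 0.0262, 0.023 and 0.029. SLC7A5 was at 16.94, 16.17 and 16.41 in R1, 16.53, 15.78 and 16.16 in R2 and 15.80, 15.22 and 15.62 in R3 out of drug, against 15.21, 14.30 and 14.41 in parental RT112. It was above every parental array in all 3 derivatives and missed the threshold too (1.87, 1.52 and 0.91, adjusted p = 0.0125, 0.0141 and 0.0635). SLC6A14 was at 8.50, 11.65 and 10.68 in R1 and at 7.56, 9.46 and 8.88 in R3 out of drug, against 5.87, 6.51 and 6.72 in parental RT112. The derivative arrays were far apart but all above the parental ones, and differences of 3.91 and 2.27 had adjusted p-values of 0.023 and 0.024. In R2 out of drug SLC6A14 was at 6.53, 8.55 and 7.37 and overlapped with parental RT112 (1.12, adjusted p = 0.173). In RT4 R1 out of drug it was at 5.04, 4.98 and 4.99, below 5.58, 6.36 and 7.43 in parental RT4 (-1.45, adjusted p = 0.111).

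The single calls in R1 and R3 out of drug were lost without any 1 parental array or replicate 3 of the derivative, and in R2 out of drug the 4 calls became 0 without parental replicate 3 and 1 without parental replicate 2 or R2 out of drug replicate 2 or 3. In RT4 R1 out of drug 3 genes passed without parental RT4 replicate 1, and 0 without any 1 of the other 5 arrays.

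The next comparison set each derivative in drug against the same derivative out of drug, and so reused the arrays of both conditions. In R1, 1 of 58 genes was higher and 3 were lower in drug, against 2.71% and 2.97% of all genes. In R2, 1 was higher and 5 were lower, against 4.36% and 5.85%. In R3 none passed in either direction, and among all genes the shares were 0% and 0%; 6 of the 58 had an unadjusted limma p under 0.05, against 7.87% of all genes, and 0 passed in the methods' t-test. In RT4 R1, 4 were higher and 10 lower, against 4.79% and 5.74% of all genes.

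SLC6A14 was at 4.79, 4.60 and 4.64 in R1 in drug and at 8.50, 11.65 and 10.68 in R1 out of drug, a difference of -5.60 (SE 0.74, adjusted p = 0.00565), with the drug arrays below the array median. In R2 it was at 4.85, 4.92 and 4.53 in drug and at 6.53, 8.55 and 7.37 out of drug (-2.72, SE 0.47, adjusted p = 0.00837). Replicate 1 was the lowest of the 3 out-of-drug arrays in both derivatives. In R3 it was at 5.22, 5.31 and 6.50 in drug and at 7.56, 9.46 and 8.88 out of drug, a difference of -2.96 whose adjusted p was 0.233. RT4 R1 was higher in drug, with 5.59, 5.65 and 5.44 in drug and 5.04, 4.98 and 4.99 out of drug (0.56, SE 0.08, adjusted p = 0.00326). Of the out-of-drug RT4 R1 arrays 1 was above the array median, and the limma call was lost under 8 of 14 alternatives, with an adjusted p of up to 0.661.

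SLC7A7 was at 6.90, 6.80 and 7.08 in R1 in drug and at 4.57, 4.72 and 4.68 in R1 out of drug (2.27, SE 0.11, adjusted p = 0.000452). In R2 it was at 6.84, 6.58 and 6.89 in drug and at 4.54, 4.75 and 4.55 out of drug (2.16, SE 0.11, adjusted p = 0.000429). Out of drug SLC7A7 lay below the array median on every R1 and R2 array, as it did in parental RT112. SLC7A8, a light chain for neutral amino acids, was at 5.91, 5.95 and 5.80 in R1 in drug and 6.77, 6.47 and 6.76 out of drug (-0.78, adjusted p = 0.00836). In R2 it was at 5.97, 5.89 and 5.95 in drug and 6.79, 6.87 and 7.18 out of drug (-1.01, adjusted p = 0.00277).

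SLC6A6 was at 9.01, 9.05 and 8.95 in R1 in drug and at 9.79, 9.72 and 9.59 out of drug (-0.70, adjusted p = 0.00613). SLC1A5 was at 10.48, 9.88 and 10.60 in R2 in drug and at 12.05, 11.79 and 11.88 out of drug (-1.59, SE 0.19, adjusted p = 0.00322). R2 in drug also had lower SLC6A11 (-0.93) and lower SLC38A2, at 14.47, 14.78 and 14.65 in drug and 15.22, 15.43 and 15.42 out of drug (-0.72, adjusted p = 0.00575). All of these groups were apart on every array, as in every gene that passed.

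In RT4 R1 the genes that fell were 4 SLC1, 3 SLC7, 1 SLC6, 1 SLC36 and 1 SLC38 genes. SLC7A5 was at 6.36, 6.43 and 6.53 in drug and at 9.20, 9.61 and 8.92 out of drug, a difference of -2.80 (SE 0.17, adjusted p = 0.000113), or 6.98-fold lower. SLC38A4, a sodium-coupled carrier of neutral and cationic amino acids best known from liver, was at 8.36, 9.27 and 9.12 in drug and at 10.42, 11.55 and 11.62 out of drug (-2.28, SE 0.37, adjusted p = 0.00538). The drug arrays were lower throughout for both genes, as in every gene that passed. SLC1A1 was at 5.36, 5.27 and 5.56 in drug and at 6.91, 7.14 and 7.66 out of drug (-1.84, SE 0.19, adjusted p = 0.000879). SLC7A8 was at 7.55, 7.71 and 7.13 in drug and at 9.40, 9.48 and 9.02 out of drug (-1.84, SE 0.18, adjusted p = 0.000707).

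The glutamine exchanger SLC1A5 fell by 1.69, SLC1A3 by 1.22, SLC1A4 by 1.14, SLC6A6 by 1.14, SLC7A1 by 1.08 and SLC36A4 by 0.88 in RT4 R1 in drug. The genes that were higher in drug were SLC43A2, at 9.36, 8.75 and 8.72 in drug and 7.48, 7.42 and 7.37 out of drug (1.52, SE 0.17, adjusted p = 0.00127), SLC38A9 (0.98, adjusted p = 0.000431), SLC7A6 (0.71) and SLC6A14, given above. SLC3A2 was at 9.29, 9.50 and 9.36 in drug and at 9.97, 9.91 and 9.42 out of drug, with overlapping groups (-0.38, adjusted p = 0.138).

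Without R1 in drug replicate 3, 11 genes passed between R1 in and out of drug, against 4, SLC7A5 among them with a difference of -2.45, and 1 or 2 passed without any 1 of the other 5 arrays. In R2, 6 passed without R2 in drug replicate 3 and 1 to 3 without any 1 of the other 5, against 6, and in RT4 R1, 9 passed without R1 out of drug replicate 3, against 14.

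**Figure D4:**
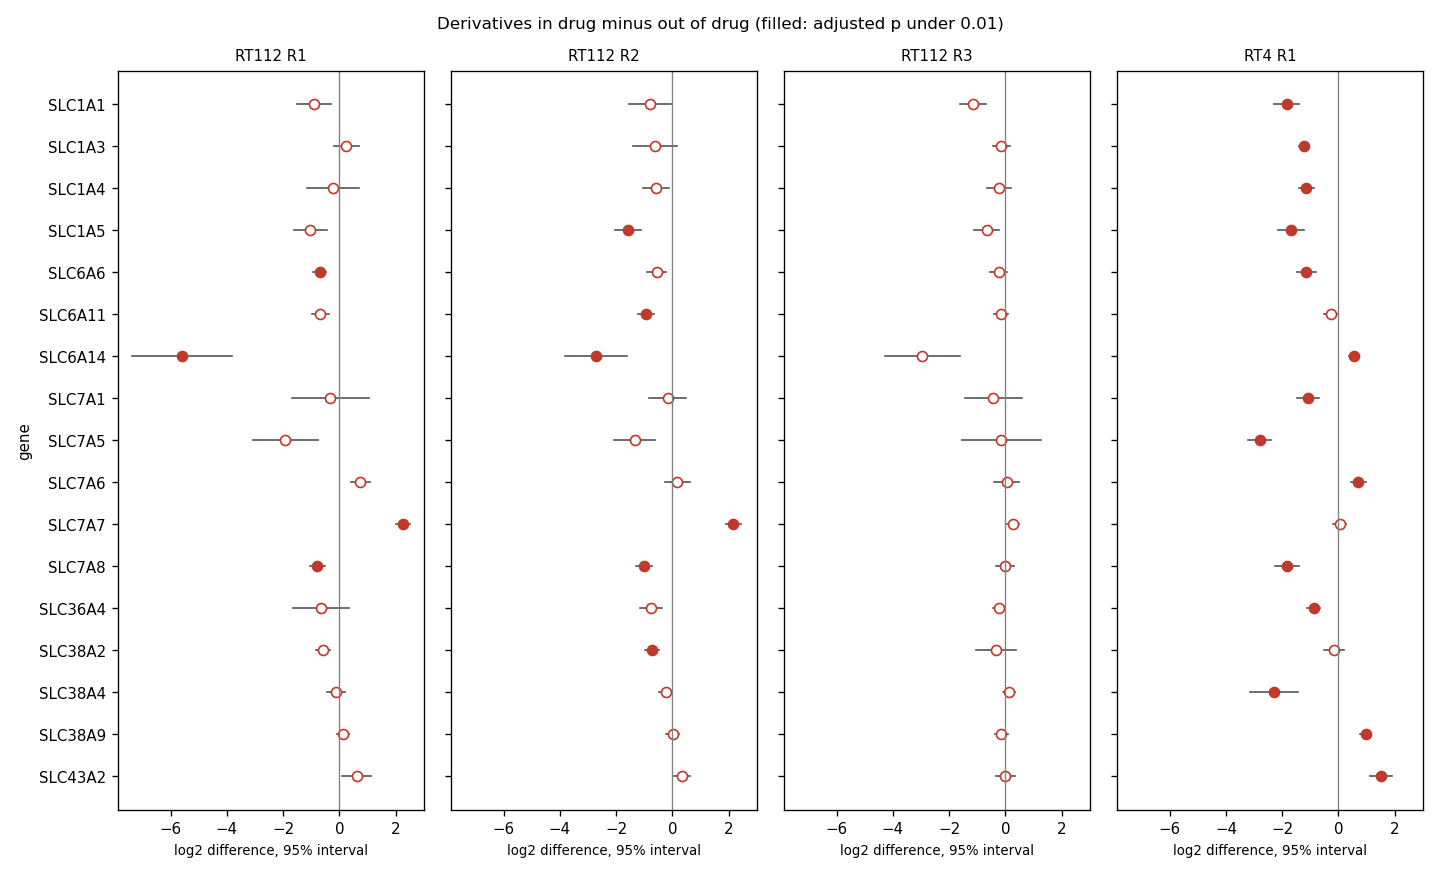
Log2 difference of each derivative in drug minus the same derivative out of drug, with 95% intervals from limma; filled points passed the test. SLC6A14 is at -5.60 in RT112 R1, -2.72 in RT112 R2 and 0.56 in RT4 R1, where its signals lie near the array median, and RT4 R1 holds 14 filled points.

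R1 and R2 were set against the same 3 arrays of R3, all in drug. Between R1 and R3, 3 of 58 genes were higher and none lower in R1, against 2.59% and 2.18% of all genes. SLC7A7 differed by 2.09 (SE 0.10, adjusted p = 0.00114), SLC38A7 by 1.29 (SE 0.14, adjusted p = 0.00484) and SLC38A9 by 0.91 (SE 0.07, adjusted p = 0.00237). SLC38A7 was at 8.14, 8.15 and 7.83 in R1 in drug and at 6.95, 6.72 and 6.57 in R3 in drug. The SLC7A7 and SLC38A9 arrays are given above.

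Between R2 and R3, 1 gene was higher and 1 lower in R2, against 2.12% and 1.02% of all genes. SLC7A7 differed by 1.94 (SE 0.11, adjusted p = 0.000733). SLC1A3 was at 8.45, 8.37 and 7.87 in R2 in drug and at 9.55, 9.68 and 9.79 in R3 in drug, a difference of -1.44 (SE 0.17, adjusted p = 0.00547). Between R1 and R3, 0 passed without R3 in drug replicate 1 or 2 and 1 without R1 in drug replicate 1 or 2, against 3. Between R2 and R3, 1 passed without any 1 array other than R2 in drug replicate 3, against 2.

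The untreated parental lines differed in 10 of the 58 genes, 3 higher and 7 lower in RT112 than in RT4, against 8.68% and 10.1% of all genes. SLC38A4 was at 4.56, 4.56 and 4.50 in RT112 and at 10.35, 13.06 and 12.91 in RT4. RT112 lay below the array median and RT4 far above it, a difference of -7.57 (SE 0.67, adjusted p = 0.000281). SLC1A3 was at 9.45, 9.28 and 9.38 in RT112 and at 5.72, 5.57 and 5.46 in RT4 (3.79, SE 0.10, adjusted p = 3.46e-06), or 13.8-fold higher in RT112. SLC6A8, the creatine carrier, which has near-identical copies elsewhere in the genome, was at 7.89, 7.91 and 8.56 in RT112 and at 9.85, 10.70 and 11.62 in RT4 (-2.60, SE 0.43, adjusted p = 0.00395). SLC7A1 was at 10.38, 9.80 and 9.95 in RT112 and at 7.71, 8.81 and 8.09 in RT4 (1.84, SE 0.29, adjusted p = 0.00318). For all 4 genes the lines did not overlap, as in every gene that passed.

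SLC7A2 (-1.64), SLC43A2 (-1.53), SLC36A4 (-1.49), SLC38A1 (-0.98) and SLC38A2 (-0.84) were also lower in RT112, and SLC7A6 (1.08) was higher. Within SLC7, the cationic carriers SLC7A1 and SLC7A2 therefore ran in opposite directions between the lines. SLC7A5 averaged 14.64 in RT112 and 10.61 in RT4, and SLC7A8 averaged 6.22 in RT112 and 10.02 in RT4. These differences, 4.03 and -3.80, missed the threshold (adjusted p = 0.0567 and 0.0111) and passed it without parental RT4 replicate 1, at 5.45 (adjusted p = 0.004) and -4.84 (adjusted p = 3.35e-06). The count was then 13, and it ran from 7 to 13 over all arrays left out in turn.

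Whether the difference of R1 in drug from untreated parental cells was itself different between the lines was tested as the RT112 R1 effect minus the RT4 R1 effect. Selection and the presence of drug cannot be told apart in this contrast, and RT4 has no 24 h group. This difference passed for 3 of 58 genes, all positive, against 4.62% of all genes positive and 3.14% negative. SLC7A7 differed by 2.47 (SE 0.13, adjusted p = 1.93e-06), SLC38A1 by 1.01 (SE 0.14, adjusted p = 0.00083) and SLC38A7 by 1.23 (SE 0.24, adjusted p = 0.00663). The SLC38A7 call was lost under 11 of 19 alternatives. SLC38A1 was at 13.31, 13.47 and 13.59 in RT112 R1 in drug and at 13.07, 12.86 and 13.12 in parental RT112. RT112 R1 lay above parental RT112 on every array, but the difference of 0.44 did not pass. RT4 R1 in drug was below parental RT4 on every array, as in every gene that passed. Without parental RT4 replicate 1 the count was 5, with SLC7A8 (3.27) and SLC38A4 (4.20) among them.

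**Figure D5:**
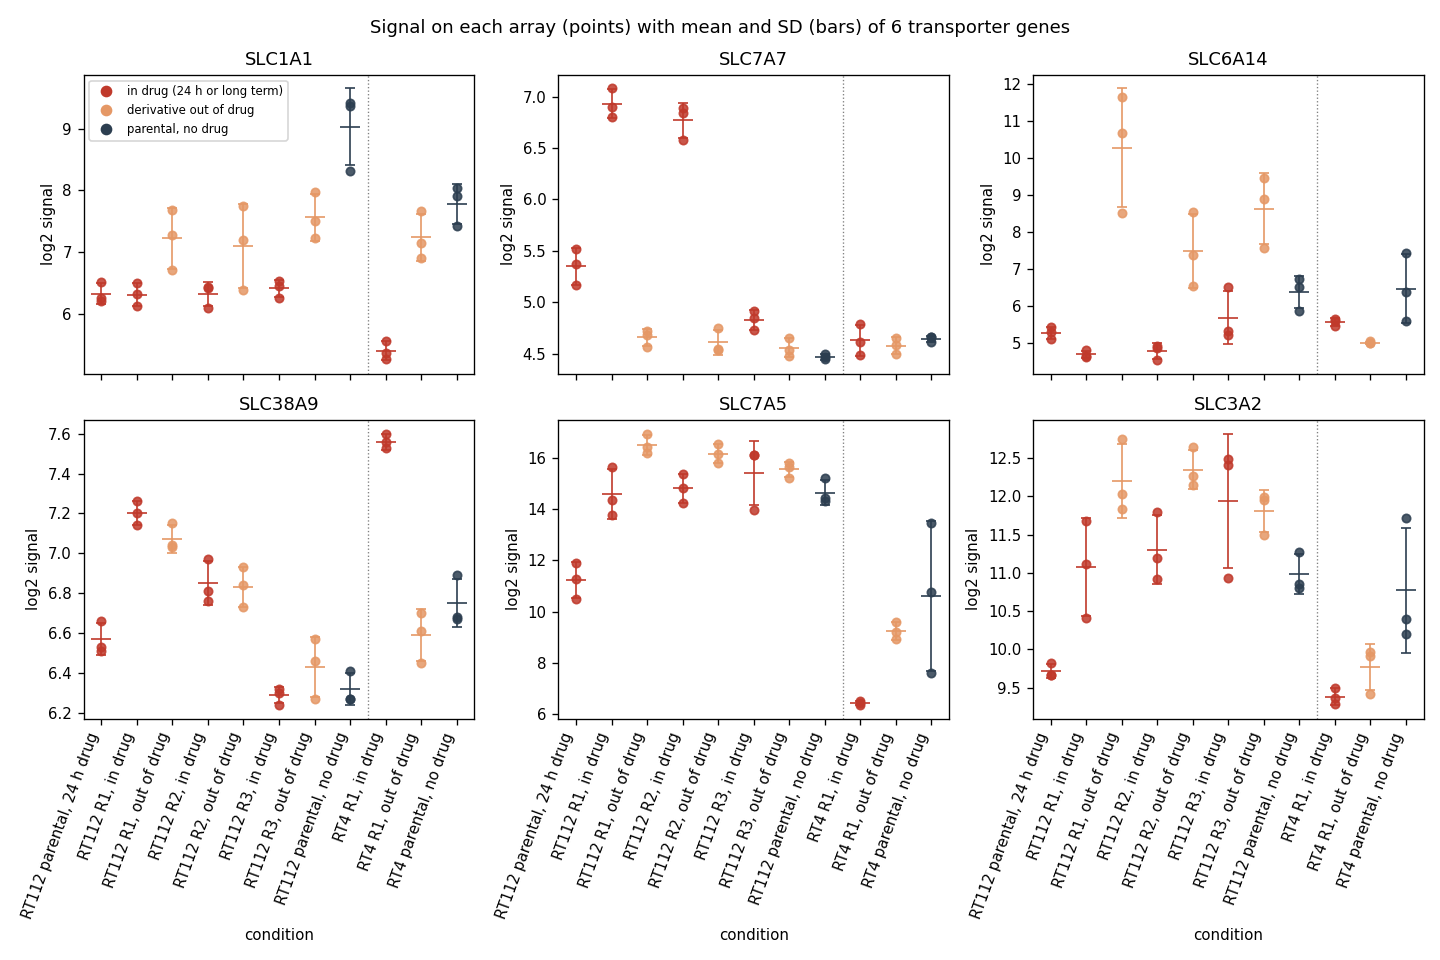
Log2 signal on each array in all 11 conditions for 6 transporter genes; points are arrays, bars are the mean and SD of 3, and each line's parental cells stand at the right of its conditions. SLC1A1 has its lowest means in the conditions with drug in both lines, SLC7A7 is high in RT112 R1 and R2 in drug, and SLC7A5 spreads between 7.61 and 13.44 in parental RT4.

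Over the 5 comparisons of drug-exposed with parental cells, SLC1A1 was lower in 5, SLC1A5, SLC6A6 and SLC6A14 in 3, and SLC1A3, SLC1A4, SLC1A7, SLC36A4 and SLC38A1 in 2. SLC7A7 and SLC38A9 were higher in 3 and SLC6A17 in 2. In all, 28 of the 58 genes passed in at least 1 of the 16 pairwise comparisons, and of all genes 44.9% did. SLC7A7 and SLC38A9 each passed 7 times, each time with a positive difference, and SLC1A1 6 times, each time with a negative one. The comparisons share arrays, so the calls of a gene are not independent of each other.

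The remaining arrays of SLC6A6, SLC36A4 and SLC43A2, the brightest genes of their families, are given next. SLC6A6 was at 9.07, 9.23 and 9.09 in parental RT112 after 24 h of drug, at 8.86, 8.67 and 8.96 in R2 in drug, at 9.13, 9.41 and 9.61 in R2 out of drug, at 9.44, 9.10 and 9.07 in R3 in drug and at 9.33, 9.48 and 9.52 in R3 out of drug, against 9.75, 9.61 and 9.81 in parental RT112. In RT4 it was at 7.67, 7.88 and 7.54 in R1 in drug and at 9.08, 8.55 and 8.87 in R1 out of drug, against 9.29, 8.40 and 9.14 in parental RT4. Every drug-exposed array was below every parental array of its line. The SLC6A6 difference passed after 24 h and in R1 and R2 in drug. It did not pass in R3 in drug or in RT4 R1 in drug (-1.25, limma adjusted p = 0.0154 in RT4 R1). SLC36A4 was at 7.61, 7.32 and 7.31 after 24 h of drug, at 7.53, 7.08 and 8.73 in R1 in drug, at 8.66, 8.46 and 8.20 in R1 out of drug, at 8.17, 7.98 and 8.44 in R2 in drug, at 8.71, 9.18 and 8.97 in R2 out of drug and at 8.98, 8.92 and 8.77 in R3 in drug, against 8.41, 8.38 and 8.39 in parental RT112. R3 was above parental RT112 in and out of drug. In RT4 R1 out of drug SLC36A4 was at 9.62, 9.35 and 9.48.

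SLC43A2 was at 7.62, 7.65 and 7.74 after 24 h of drug, at 7.49, 7.47 and 6.80 in R1 in drug, at 6.45, 6.84 and 6.65 in R1 out of drug, at 7.02, 7.0 and 6.66 in R2 in drug, at 6.86, 7.19 and 7.38 in R3 in drug and at 7.15, 7.23 and 7.05 in R3 out of drug, against 7.30, 7.50 and 7.46 in parental RT112. It was at 8.54, 9.32 and 9.0 in parental RT4, so that RT4 R1 in drug overlapped with it and RT4 R1 out of drug lay below it. SLC1A5 was at 11.86, 12.04 and 11.64 in R1 out of drug and at 11.97, 12.44 and 11.82 in R3 out of drug, and at 11.80, 12.35 and 11.76 in RT4 R1 out of drug. SLC3A2 was at 12.75, 12.03 and 11.83 in R1 out of drug and at 11.95, 11.50 and 11.99 in R3 out of drug. Both derivatives were above every parental RT112 array for SLC3A2, and neither difference passed (1.23 and 0.84, adjusted p = 0.0303 and 0.0245). SLC38A2 was at 15.42, 15.48 and 15.28 in R1 out of drug, at 14.59, 15.77 and 14.96 in R3 out of drug and at 15.93, 15.60 and 15.92 in RT4 R1 out of drug, overlapping with the parental arrays in all 3.

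Other genes of amino acid transport and sensing were counted from 3 lists. Of 19 other amino acid carriers, 7 fell and 2 rose after 24 h of drug, with SLC7A11, the cystine exchanger, at -3.51 and the peptide carrier SLC15A2 at 1.65. Of 25 genes on the list for the ATF4 amino acid response, 9 fell and 4 rose, where 13.1% and 11.4% of all genes did. The list also holds EIF2AK3, EIF2AK4 and EIF2S1, which act upstream of ATF4, so its counts are not of ATF4 targets alone. PSAT1 was at -3.02, MTHFD2 at -2.35 and ASNS, asparagine synthetase, at -1.01, and the genes that rose were EIF2AK3 (1.7), DDIT3 (1.1), PPP1R15A (0.59) and EIF2AK4 (0.57). Of 29 genes of amino acid sensing at the lysosome, 10 rose and 7 fell. Of the 25 ATF4 genes, 2 rose and 2 fell in R1 in drug, 5 rose and 2 fell in R2 in drug, 2 rose and 2 fell in RT4 R1 in drug, and 3 rose and none fell in R2 out of drug. Of the 29 sensing genes, 8 rose and 1 fell in R1 in drug and 7 rose and 3 fell in R2 in drug. Among all genes 5.19% rose and 6.52% fell in R1 in drug, 9.08% and 8.91% in R2 in drug, 2.53% and 3.33% in RT4 R1 in drug and 4.18% and 2.69% in R2 out of drug. SESN3, a sestrin that restrains mTORC1, rose by 4.0 in R1 and by 7.71 in R2. In RT4 R1 in drug against out of drug, 8 of the 25 ATF4 genes fell and 1 rose, against 5.74% and 4.79% of all genes, where 10 of the 58 transporters had fallen and 4 had risen.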

How the data were processed

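Total RNA of RT112 and RT4 cells was hybridised to Affymetrix Human Transcriptome 2.0 arrays (11 conditions, 3 arrays each). The deposited values are log2 signals that the authors made by RMA, which subtracts a modelled background, gives all arrays the same distribution and combines the probes of a probe set; the labels name Affymetrix Expression Console, and versions are not given in the sources used here. The number of arrays limits the precision. All sample columns of the table were used (columns left out: 0). Probe sets were named from the platform annotation: 23781 of 70523 had 1 symbol and 1543 several, and the brightest probe set of a symbol over all 33 arrays gave 22465 genes. Differences were tested with limma 3.58.1 (lmFit and eBayes, 2-sided) in R 4.3.3 with statmod 1.5.0, on the 3 arrays of each of the 2 conditions compared, with Benjamini-Hochberg adjustment over all genes and a threshold of 0.01, after the pairwise LIMMA test of the study's methods. The difference between lines was a contrast over 12 arrays. The script was tested on simulated data.

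Members and lists were chosen with earlier results of these data known. Named with values are members that passed in at least 1 of the 16 pairwise comparisons, with every array for up to 4 members a comparison with the largest difference, for the brightest member of each family, and for SLC3A2, SLC7A5, SLC1A5 and SLC38A2. The lists of other carriers (19 of 20 genes measured), sensing at the lysosome (29 of 32) and the ATF4 response (25 of 26) and the marker lists were written by hand. Correlations of same-numbered arrays' deviations ran from -0.44 to 0.38, and all 3 were over 0.1 only between RT112 R3 out of drug and parental RT112 (0.38, 0.28 and 0.11), which was the sole pairing and rests on these correlations, not on a label. Alternatives were the mean of all probe sets of a symbol, every transcript cluster (67528), genes under the 30th percentile left out, a trended and robust prior, arrays centred on their median, 1 fit over 33 arrays, the replicate block, the methods' t-test and each array left out in turn.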

Additional observations from a re-analysis of the deposited data

Results flagged for a closer look

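The difference of R1 in PD173074 from untreated parental cells, in which selection and the presence of drug cannot be told apart, was itself different between RT112 and RT4 for 3 of the 58 transporter genes by limma's test. SLC7A7 differed by 2.47 (SE 0.13, adjusted p = 1.93e-06), with an effect of 2.45 in RT112 R1 and -0.01 in RT4 R1. In RT112 it averaged 5.35 after 24 h of drug and 4.66 in R1 out of drug, against 4.47 in parental cells. SLC38A1 differed by 1.01 (SE 0.14, adjusted p = 0.00083), with effects of 0.44 in RT112 R1, which did not pass, and -0.57 in RT4 R1. SLC38A7 differed by 1.23 (SE 0.24, adjusted p = 0.00663), with effects of 0.94 in RT112 R1 and -0.29 in RT4 R1. The RT4 R1 effect of SLC38A7 did not pass, and its call between lines was lost under 11 of 19 alternatives. The calls of SLC7A7 and SLC38A1 between lines passed under all 19. The lines were kept in different media, and the part of this in the differences was not tested.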

How the results depend on the processing

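Of 91 calls of transporter genes over 17 tests, 15 passed under every alternative and 76 were lost in at least 1. Counts of genes that passed, which the alternatives moved by over 1.5 times, are given next. The methods' t-test gave 8 after 24 h, 2 in R1, 1 in R2, 0 in R3 and 0 in RT4 R1 in drug, 0 in each of the 4 derivatives out of drug, 0, 0 and 1 for R1, R2 and RT4 R1 in against out of drug, 0 and 0 for R1 and R2 against R3, and 4 between parental lines. With the replicate block the counts were 1, 0 and 2 in R1, R3 and RT4 R1 in drug, 4, 3 and 0 in R1, R3 and RT4 R1 out of drug, 1 for R1 in against out of drug, and 0 and 0 for R1 and R2 against R3; apart from R3 out of drug, the arrays share only a number. Testing every transcript cluster gave 7 and 0 in R2 and R3 in drug, 0, 2 and 0 in R1, R2 and R3 out of drug, and 2 for R1 in against out of drug. A single fit over 33 arrays gave 2 and 12 in R3 and RT4 R1 in drug, 8, 2 and 8 in R1, R3 and RT4 R1 out of drug, 9 for R1 in against out of drug, 8 and 6 for R1 and R2 against R3, 20 between parental lines and 6 for the difference between lines. Leaving out genes under the 30th percentile gave 3 and 2 in R1 and RT4 R1 out of drug.

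On leaving out each array in turn the counts ran from 11 to 14 after 24 h, from 2 to 12 in R1, 5 to 9 in R2, 0 to 2 in R3 and 1 to 10 in RT4 R1 in drug, from 0 to 1, 0 to 5, 0 to 1 and 0 to 3 in the same derivatives out of drug, from 1 to 11, 1 to 6 and 9 to 12 for R1, R2 and RT4 R1 in against out of drug, from 0 to 4 and 1 to 2 for R1 and R2 against R3, from 7 to 13 between parental lines and from 2 to 5 for the difference between lines. The ends rest on parental RT112 replicate 3 (5 in R2 in drug, 0 in R2 out of drug), R1 in drug replicate 3 (12 and 11) and parental RT4 replicate 1 (10, 3, 13 and 5). SLC7A5 turned its direction in RT4 R1 out of drug against parental RT4, at 0.05 (adjusted p = 0.971) without parental RT4 replicate 1 and -1.36 (adjusted p = 0.651) with it, and its lowest value with 1 array left out was -2.86. The cause of these changes was not tested. With 3 arrays a condition, genes whose arrays spread widely, such as SLC7A5 in parental RT4, can differ widely and not pass.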
